A study of Bos taurus with 6 samples.

Results

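miR-10, miR-99, miR-100 and miR-125 are related microRNAs (miRNAs), and 7 of their mature forms were followed here in the extracellular vesicles (EVs) of bovine granulosa cells, the somatic cells that line the ovarian follicle. The members were taken by name: bta-miR-10a, bta-miR-10b, bta-miR-99a-5p, bta-miR-99b, bta-miR-100, bta-miR-125a and bta-miR-125b. All 7 were present among the 512 miRNAs of the EV libraries. The study asked how heat stress (HS) alters the miRNAs that granulosa cells release in EVs. Granulosa cells from ovaries of a slaughterhouse, aspirated from follicles of 3 to 6 mm, were cultured for 24 h at 37 °C and then either kept at 37 °C (control-EVs) or moved to 42 °C (HS-EVs) for another 24 h, with 3 libraries in each group. Both groups were grown in medium with exosome-depleted fetal bovine serum, and the EVs were precipitated from the spent medium, so that bovine miRNAs left over from the serum and those of the cells cannot be told apart in these values. The labels describe the replicates as biological but do not say whether they came from separate pools of ovaries, and the number of animals behind a library is not given in the sources used here. The p-values therefore measure the spread between these libraries, which may be technical. The labels do not pair libraries of the same replicate number, so comparisons of same-numbered libraries are descriptive only.

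A miRNA is a short RNA that pairs with messenger RNAs, mainly through its seed near the 5′ end, and lowers their translation and stability. The miR-10 family sits inside the HOX clusters, the gene arrays that set position along the body axis, and HOX transcripts are among its known targets. miR-99a, miR-99b and miR-100 share most of their sequence with miR-10, but their seed differs from that of miR-10, and MTOR, the growth-controlling kinase, is a well studied target. miR-125a and miR-125b are the vertebrate relatives of lin-4 of the nematode, the first miRNA described, and are known for their targets in cell survival and differentiation, among them LIN28 and p53. In vertebrates, genes of the miR-99 and miR-125 kinds lie beside let-7 genes in conserved clusters.

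Gene order in RefSeq (assembly ARS-UCD2.0) showed this arrangement. The authors used another assembly, UMD3.1, so no positions are given. The 7 mature miRNAs come from 8 annotated hairpin genes, because bta-miR-125b can arise from MIR125B-1 or MIR125B-2. MIR10A overlapped HOXB3 with HOXB4 as the next gene, and MIR10B overlapped HOXD4. MIR99A had MIRLET7C and MIR125B-2 as neighbours, MIR100 had MIRLET7A-2 and MIR125B-1, and MIR99B was followed by MIRLET7E and MIR125A. These clusters make let-7c, let-7a and let-7e the natural partners for comparison. bta-miR-10a and bta-miR-10b, bta-miR-99a-5p and bta-miR-100, and bta-miR-125a and bta-miR-125b are near-identical pairs, so the authors' counting could have split some reads between them.

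The deposited values were normalized read counts, from which whole reads were recovered, because all values of a library are whole steps of its lowest nonzero value. The study reports fewer reads on annotated miRNAs in each library than were recovered, and the reason was not tested. By the recovered reads, the libraries held between 274434 and 2360980 reads on miRNAs, of which bta-miR-1246 alone took 59.9% to 98.6%. The highest of these shares was in HS-EVs replicate 1, which stood apart from the other libraries: it left 34141 reads for all other miRNAs, and a read there was worth 4.11 normalized counts, against 0.697 to 1.98 elsewhere. A detection floor of 3 reads thus corresponds to 12.3 normalized counts in that library and to 2.09 to 5.93 in the other 5. The granulosa label was checked against 4 miRNAs linked to these cells: the gonadal bta-miR-202 had 508 to 2818 reads in every library and bta-miR-132 had 10 to 65, while bta-miR-383 and bta-miR-212 had at most 1 read in any library.

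Together the 7 miRNAs had 738 to 4301 reads per library. The members ranked 17 (bta-miR-125a), 29 (bta-miR-125b), 49 (bta-miR-10b), 84 (bta-miR-99b), 91 (bta-miR-99a-5p), 178 (bta-miR-100) and 208 (bta-miR-10a) among the 512 miRNAs by mean normalized count. Mature miRNAs are of nearly equal length, so counts were compared between members without a length correction, although ligation efficiency differs between sequences and was not measured. The miR-125 forms were thus the bulk of this group in EVs, and miR-100 and miR-10a were near the limit of detection.

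**Figure D1:**
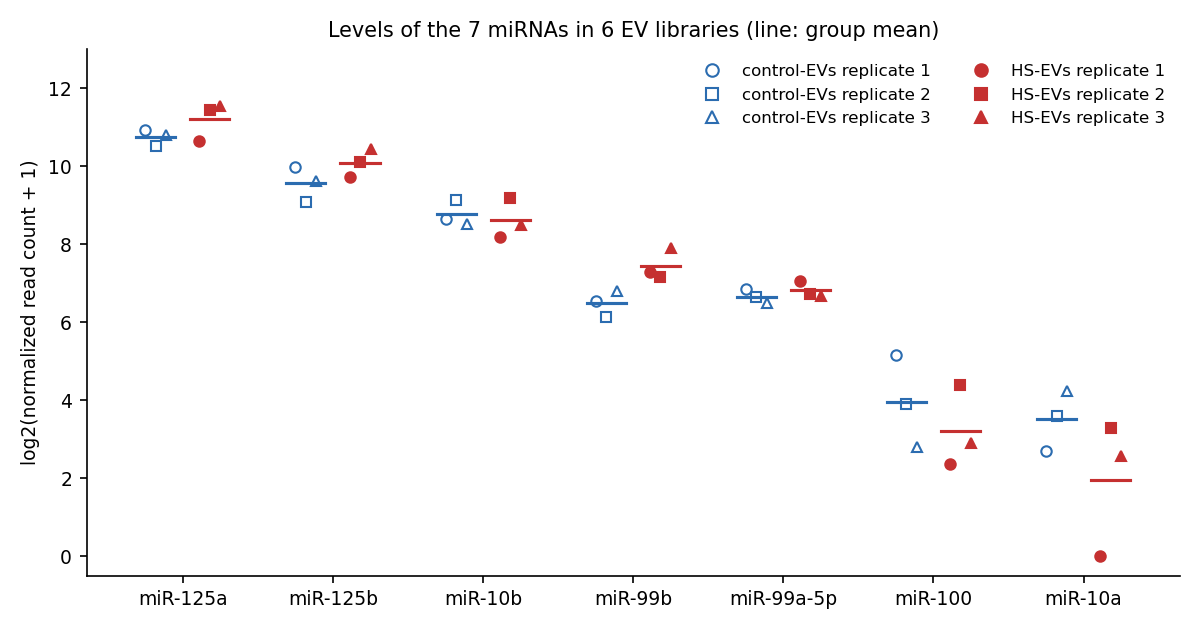
Levels of the 7 miRNAs in the 6 EV libraries, as log2(normalized read count + 1) on the vertical axis, with open blue symbols for control-EVs, filled red symbols for HS-EVs, a symbol shape for each replicate number and a line at the mean of each group of 3. The levels fall from bta-miR-125a to bta-miR-10a, bta-miR-99b is the member whose groups do not overlap, and bta-miR-10a is at 0 in HS-EVs replicate 1.

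The neighbours in this order were compared by their log2 ratio of normalized counts + 1 within each library (exact sign-flip permutation test over 6 libraries, two-sided, smallest p possible 0.0312, adjusted over 6 pairs). The order was set by the means over these same libraries, so the p-values are no independent test of it. bta-miR-125a exceeded bta-miR-125b in 6 of 6 libraries, by a log2 ratio of 1.15 ± 0.20 (SD, n = 6; exact permutation p = 0.0312, adjusted 0.0625). bta-miR-125b exceeded bta-miR-10b in 5 of 6, by 1.14 ± 0.69 (SD, n = 6; exact permutation adjusted p = 0.0938), and lay just under it in control-EVs replicate 2. bta-miR-10b exceeded bta-miR-99b in 6 of 6, by 1.72 ± 0.88 (SD, n = 6; exact permutation adjusted p = 0.0625). bta-miR-99b and bta-miR-99a-5p could not be ordered: the log2 ratio was 0.23 ± 0.61 (SD, n = 6), higher in 4 of 6 libraries (exact permutation adjusted p = 0.438). The step from bta-miR-99a-5p down to bta-miR-100 was the widest, with a log2 ratio of 3.15 ± 1.10 (SD, n = 6) in 6 of 6 libraries (exact permutation adjusted p = 0.0625). bta-miR-100 and bta-miR-10a, with a log2 ratio of 0.85 ± 1.46 (SD, n = 6; 0.74 on reads + 0.5), could not be ordered either (exact permutation adjusted p = 0.3). None of the 6 steps passed an adjusted p of 0.05, although 3 of them had the smallest p that 6 libraries allow.

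Between the groups, 0 of the 7 members passed the study's threshold for EVs, an adjusted p of at most 0.3 together with a log2 fold change of at least 1 in size, in limma on log2(normalized read count + 1). Over all 512 miRNAs the share was 0%, so the 0 of 7 says nothing particular to the members. This 0% belongs to the limma fit. With edgeR on these libraries, the study reported several EV miRNAs as enriched at its threshold, none of them a member. At an unadjusted p of 0.05 or less limma had 0 of the 7 members, against 4.88% of all miRNAs. On the recovered reads, edgeR's quasi-likelihood test and DESeq2 also called 0 members, against 0.586% and 0% of all miRNAs, and each had 1 member, bta-miR-99b, at an unadjusted p of 0.05 or less, against 5.08% and 1.95%. The log2 fold change was above 0 in 4 members (bta-miR-99a-5p, bta-miR-99b, bta-miR-125a and bta-miR-125b) and below 0 in 3 (bta-miR-10a, bta-miR-10b and bta-miR-100), against 50% of all miRNAs above 0. The median over the members was 0.16 and over all miRNAs 0.01. These signs hold for the deposited normalization and when bta-miR-1246 is left out of the library totals used for scaling. Scaled by all reads, all 7 were below 0, where the median of all 512 miRNAs was itself -1.01.

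**Figure D2:**
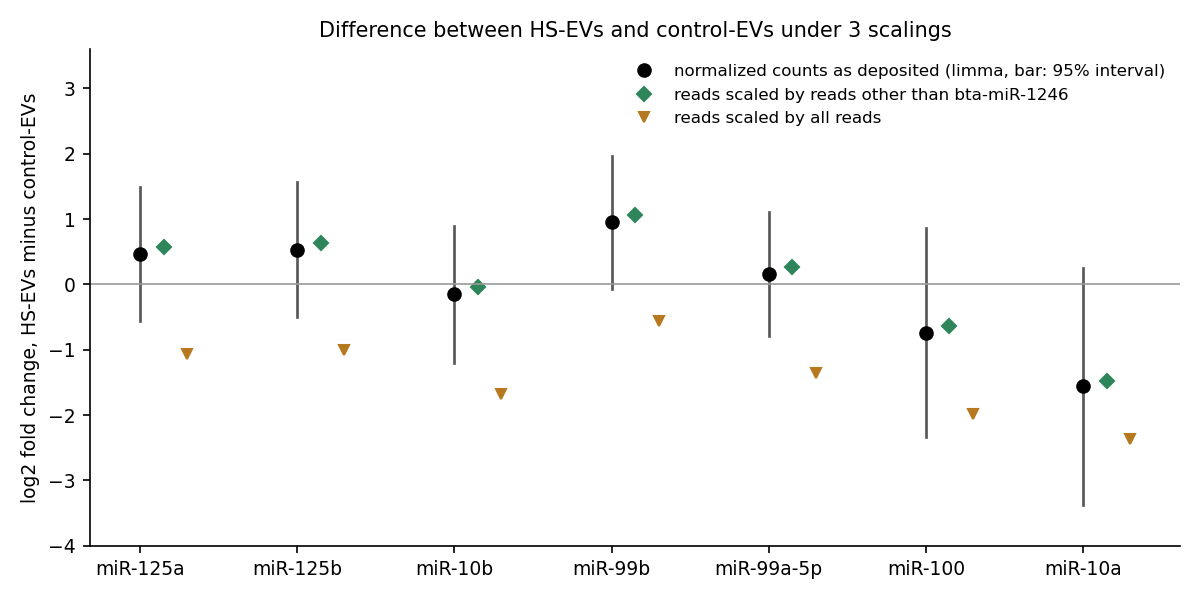
log2 fold change of each of the 7 miRNAs, HS-EVs minus control-EVs, with black points and 95% interval bars from limma on the deposited normalized counts, green diamonds for reads scaled by library totals without bta-miR-1246 and brown triangles for reads scaled by all reads. Each interval includes 0, and scaling by all reads moves each member down, to -0.56 for bta-miR-99b and -2.36 for bta-miR-10a.

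bta-miR-99b was the member with the clearest difference. Control-EVs replicates 1 to 3 had 91.8, 69.7 and 111 normalized counts of it, whereas the HS-EVs had 156, 141 and 236. Each HS-EVs library lay above each control-EVs library, which held for 1 of the 7 members, against 3.71% of all miRNAs not overlapping in this direction and 6.45% in either. These values rest on 50, 100 and 56 reads in control-EVs and on 38, 128 and 145 reads in HS-EVs. Its means were 90.7 ± 20.5 for control-EVs and 178 ± 51.3 for HS-EVs (SD, n = 3 each). The log2 fold change was 0.95 with a standard error of 0.45 (95% interval -0.06 to 1.97; limma adjusted p = 0.873). A two-sided exact permutation test over the libraries gave p = 0.1, and 3 against 3 libraries can give no smaller value. As these are bulk EV samples, a change in the number of EVs of a kind and a change in the miRNA content per EV cannot be told apart. On the recovered reads, the log2 fold change was 0.96 in edgeR's quasi-likelihood test (adjusted p = 0.635) and 0.93 in DESeq2 (adjusted p = 0.995). Leaving out any 1 library kept the log2 fold change between 0.73 and 1.10. The study listed this miRNA, with bta-miR-150 and bta-miR-29b, from its own test of these same libraries, in which none of them passed its threshold on adjusted p. The listing is thus not independent evidence. The non-overlap was lost on reads scaled by all reads, where bta-miR-99b took 0.00161% of the reads of HS-EVs replicate 1, the lowest share of the 6 libraries. The log2 fold change was then -0.56, which is 0.45 above the median of all miRNAs on that scale.

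bta-miR-99a-5p, close in level to bta-miR-99b and of the same seed family, was the steadiest of the 7. It had 114, 99 and 88.9 normalized counts in control-EVs and 131, 104 and 101 in HS-EVs, and the groups overlapped. Its log2 fold change was 0.16 with a standard error of 0.42 (95% interval -0.79 to 1.10; limma adjusted p = 0.952), and 0.038 without HS-EVs replicate 1. Its spread over the 6 libraries was 0.19 on the log2 scale (SD), equal to the 0.19 that counting error of its 32 to 142 reads alone would give. For bta-miR-99b the spread was 0.61 where counting error would give 0.18. The ratio of bta-miR-99a-5p to bta-miR-99b was lower in HS-EVs by 0.80 on the log2 scale, in 3 of 3 same-numbered pairs, but the groups overlapped (exact permutation test, two-sided, p = 0.2, adjusted over 21 member pairs p = 0.45). Without HS-EVs replicate 3 this difference was -0.50. The other arm of the same hairpin, bta-miR-99a-3p, had 1 to 9 reads per library, against 32 to 142 for the 5p arm. It was the only other arm of the 7 miRNAs in the files.

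bta-miR-100, the third member of the miR-99 kind, had 34.9, 13.9 and 5.93 normalized counts in control-EVs and 4.11, 19.8 and 6.52 in HS-EVs. These values rest on 19, 20 and 3 reads in control-EVs and on 1, 18 and 4 reads in HS-EVs. The groups overlapped widely, and the log2 fold change of -0.74 had a standard error of 0.71 (95% interval -2.33 to 0.86; limma adjusted p = 0.873). Counting error alone would give an SD of 0.78 on the log2 scale, against 1.08 observed. Its value of 34.9 in control-EVs replicate 1 stood above the others, and without that library the log2 fold change was -0.13.

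bta-miR-10b was the abundant form of the miR-10 pair. It had 396, 565 and 366 normalized counts in control-EVs and 288, 577 and 359 in HS-EVs, from 70 to 810 reads. The replicate 2 libraries were the highest of both groups, and the groups overlapped. The means were 442 ± 107 for control-EVs and 408 ± 151 for HS-EVs (SD, n = 3 each). Between them the log2 fold change was -0.15 with a standard error of 0.47 (95% interval -1.20 to 0.90; limma adjusted p = 0.952), and it was 0.068 without HS-EVs replicate 1 and 0.037 without control-EVs replicate 2.

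bta-miR-10a was found at 5.51, 11.2 and 17.8 normalized counts in control-EVs and at 0, 8.80 and 4.89 in HS-EVs. The reads were 3, 16 and 9 against 0, 8 and 3. HS-EVs were lower in 3 of 3 same-numbered pairs, but the groups overlapped, since HS-EVs replicate 2 lay above control-EVs replicate 1. The log2 fold change was -1.56 with a standard error of 0.81 (95% interval -3.37 to 0.25; limma adjusted p = 0.873). It rests on the library with 0 reads, where the floor of 12.3 normalized counts lay above 2 of the 3 control-EVs values. Without HS-EVs replicate 1 the log2 fold change was -0.59, and with all libraries edgeR on the recovered reads gave -0.95. bta-miR-10b had 20.6 to 73.3 reads for each read of bta-miR-10a in the 5 libraries where bta-miR-10a was found, and 70 against 0 reads in HS-EVs replicate 1, where the exact 95% lower limit of the ratio was 18.5. The lowest of these ratios was in control-EVs replicate 3, with 185 against 9 reads and an exact 95% interval of 10.6 to 45.7.

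bta-miR-125a was the most abundant of the 7. It had 1942, 1456 and 1786 normalized counts in control-EVs and 1602, 2772 and 3012 in HS-EVs, from 390 to 2520 reads. HS-EVs replicates 2 and 3 lay above each control-EVs library, while HS-EVs replicate 1 lay below 2 of the 3. The means were 1728 ± 248 for control-EVs and 2462 ± 754 for HS-EVs (SD, n = 3 each). This gave a log2 fold change of 0.47 with a standard error of 0.46 (95% interval -0.56 to 1.49; limma adjusted p = 0.873). Without HS-EVs replicate 3 it was 0.30, and without HS-EVs replicate 1 it was 0.75.

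bta-miR-125b followed the same course at a lower level. It had 1006, 540 and 792 normalized counts in control-EVs and 851, 1108 and 1384 in HS-EVs, from 207 to 1007 reads. Again HS-EVs replicates 2 and 3 were the highest libraries, and HS-EVs replicate 1 lay among the control-EVs. The means were 780 ± 233 for control-EVs and 1114 ± 267 for HS-EVs (SD, n = 3 each). Their log2 fold change was 0.53 with a standard error of 0.46 (95% interval -0.50 to 1.57; limma adjusted p = 0.873). Without control-EVs replicate 2, the library lowest in bta-miR-125b, it was 0.29. For both miR-125 forms, counting error would give an SD of at most 0.07 on the log2 scale, against 0.43 and 0.46 observed over the 6 libraries.

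**Figure D3:**
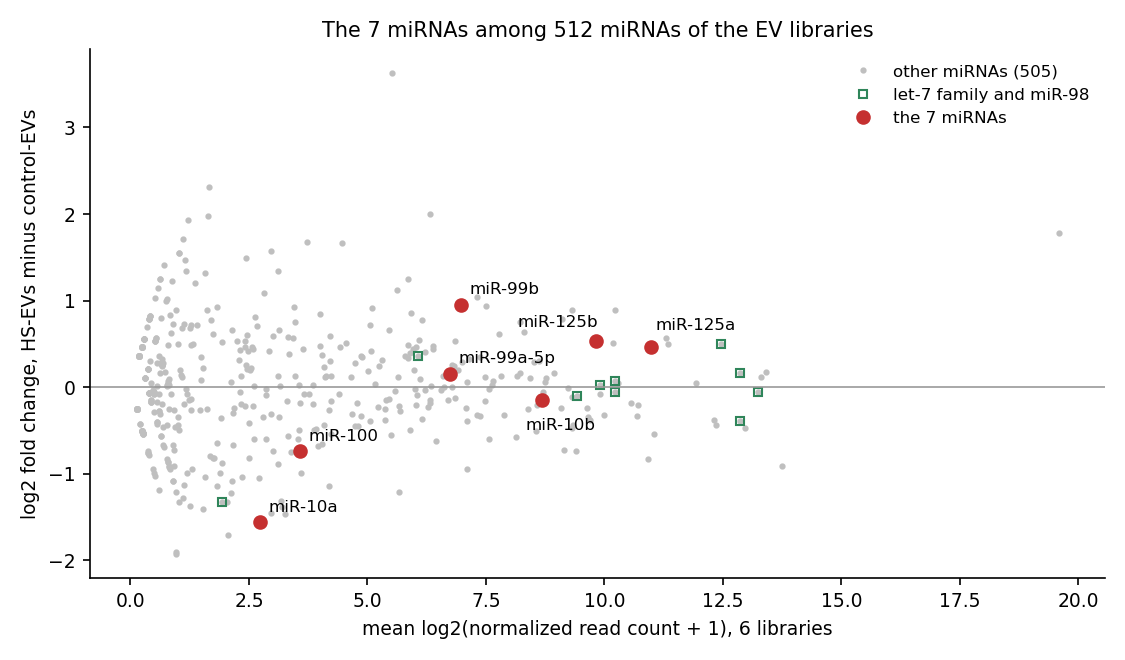
log2 fold change, HS-EVs minus control-EVs, against mean log2(normalized read count + 1) over the 6 libraries for all 512 miRNAs, with the 7 miRNAs as labelled red points, the let-7 family and miR-98 as green squares and the other miRNAs in grey. bta-miR-10a and bta-miR-100, at a mean of 2.73 and 3.58, lie where fold changes scatter widely, and the other 5 members lie between -0.15 and 0.95.

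Ratios between members were also formed within each library. The scaling factor cancels in them except for the added 1, which is worth a different number of reads in each library and bears on the rare members. Of all 21 member pairs, 1 pair did not overlap between the groups, bta-miR-10a over bta-miR-99b, lower in HS-EVs by 2.51 on the log2 scale (exact permutation test, two-sided, p = 0.1, adjusted p = 0.45). Without HS-EVs replicate 1, where bta-miR-10a had 0 reads, this difference was -1.61, and on reads + 0.5 with all libraries it was -2.18. Over all pairs of miRNAs the share not overlapping was not counted, while 6.45% of single miRNAs did not overlap. The steadiest of the 21 pairs was bta-miR-125a over bta-miR-125b, with an SD of 0.20 over the 6 libraries, whereas the SD of the other pairs reached 1.82. There were 1.93, 2.69 and 2.25 reads of bta-miR-125a for each read of bta-miR-125b in the control-EVs, and 1.88, 2.50 and 2.18 in the HS-EVs, in the order of replicates 1 to 3. Replicate 2 was the highest and replicate 1 the lowest in both groups, and the groups differed by -0.06 on the log2 scale (exact permutation test, two-sided, p = 0.7). Their SDs of 0.24 in control-EVs and 0.20 in HS-EVs (n = 3 each) were larger than this difference, although the ratio was lower in HS-EVs in 3 of 3 same-numbered pairs. Counting error would give an SD of 0.08 for this ratio, less than the 0.20 observed.

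The members were also compared as shares of the reads on all 7. bta-miR-125a took 52.8% to 59.0% of the member reads, and bta-miR-125b took 24.2% ± 4.26 of control-EVs and 26.2% ± 2.45 of HS-EVs (SD, n = 3 each). bta-miR-10b took 11.0%, 20.5% and 11.5% in control-EVs and 9.49%, 12.2% and 7.03% in HS-EVs. Its share was lower in HS-EVs in 3 of 3 same-numbered pairs, but the groups overlapped (exact permutation test, two-sided, p = 0.3). bta-miR-99b took 2.86% ± 0.549 of control-EVs and 4.25% ± 1.14 of HS-EVs (SD, n = 3 each; exact permutation test, two-sided, p = 0.2). On this scale its groups overlapped, since the 2.98% of HS-EVs replicate 2 lay below the 3.49% of control-EVs replicate 3.

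**Figure D4:**
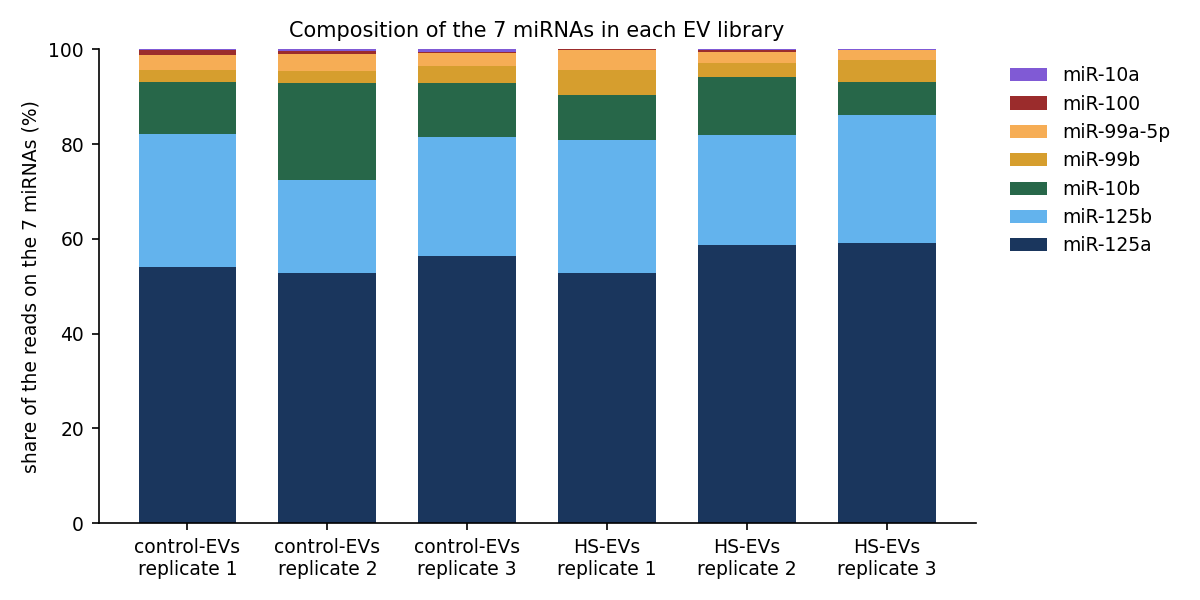
Share of the reads on the 7 miRNAs taken by each member, in percent, as a stacked bar for each of the 6 EV libraries. bta-miR-125a makes up more than any other member in each library, and control-EVs replicate 2 stands out by its 20.5% of bta-miR-10b.

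As a share of all reads on miRNAs, the 7 members together made up 0.392%, 0.672% and 0.584% in control-EVs and 0.0313%, 0.849% and 0.561% in HS-EVs. The low value is that of the library with 98.6% of its reads on bta-miR-1246, and the groups overlapped (exact permutation test, two-sided, p = 0.8). With bta-miR-1246 left out of the total, the members took 2.55%, 1.68% and 2.18% in control-EVs and 2.16%, 3.48% and 3.61% in HS-EVs. The mean share was then 2.14% ± 0.440 for control-EVs and 3.09% ± 0.803 for HS-EVs (SD, n = 3 each; exact permutation test, two-sided, p = 0.3). The 95% Wilson interval of HS-EVs replicate 1, which had the fewest member reads, ran from 2.01% to 2.32% and covers counting error only.

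The let-7 miRNAs beside which these genes lie promote differentiation and are abundant in most tissues. Of 10 entries of the let-7 family, miR-98 included, 0 were called in limma, 0 had an unadjusted p of 0.05 or less (4.88% of all miRNAs), and 5 had a log2 fold change above 0, with a median of -0.01. bta-let-7a-5p, the most abundant of the 3 cluster partners, had a log2 fold change of -0.05, bta-let-7c of 0.08 and bta-let-7e of -0.06 (limma standard errors 0.43, 0.44 and 0.42; adjusted p = 0.974, 0.972 and 0.974). Their groups overlapped.

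As bta-let-7e was nearly level between the groups, the ratio of bta-miR-99b to it carries the difference already given for bta-miR-99b and is no second measure of it. There were 0.0784, 0.0529 and 0.0935 reads of bta-miR-99b for each read of bta-let-7e in control-EVs, and 0.117, 0.142 and 0.194 in HS-EVs. Each HS-EVs library lay above each control-EVs library. The difference was 1.01 on the log2 scale, with 3 of 3 same-numbered pairs higher in HS-EVs (p = 0.1 in the two-sided exact permutation test, which can go no lower here; adjusted over 6 cluster pairs p = 0.45). It stayed between 0.78 and 1.19 when any 1 library was dropped. bta-miR-125a, from the same cluster, was higher relative to bta-let-7e by 0.53 on the log2 scale, with overlapping groups (exact permutation test, two-sided, p = 0.3), because the ratio of 1.20 in HS-EVs replicate 1 fell within the 1.11 to 1.66 of control-EVs. The ratio of bta-miR-99b to bta-miR-125a was higher in HS-EVs by 0.48 on the log2 scale in 3 of 3 pairs, also with overlapping groups (exact permutation test, two-sided, p = 0.2). Without HS-EVs replicate 1 the first of these differences was 0.91 and the second 0.27, and without HS-EVs replicate 2 they were 0.29 and 0.74.

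The other clusters did not separate the groups. bta-miR-99a-5p over bta-let-7c differed by 0.08 on the log2 scale (exact permutation test, two-sided, p = 0.8), and bta-miR-125b over bta-let-7c by 0.46 (p = 0.3 by the exact permutation test). bta-miR-125b over bta-let-7a-5p differed by 0.58 (exact permutation test, p = 0.3) and bta-miR-100 over bta-let-7a-5p by -0.69 (exact permutation test, p = 0.5). Leaving out 1 library at a time moved these differences widely, from 0.26 to 0.68 for bta-miR-125b over bta-let-7c, from 0.36 to 0.87 for bta-miR-125b over bta-let-7a-5p and from -1.43 to -0.15 for bta-miR-100 over bta-let-7a-5p. The value nearest 0 came without control-EVs replicate 2 for both ratios of bta-miR-125b and without HS-EVs replicate 1 for that of bta-miR-100, which was -0.16 without control-EVs replicate 1. bta-miR-125b has 2 genes and let-7a several, so these ratios do not belong to a single cluster.

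**Figure D5:**
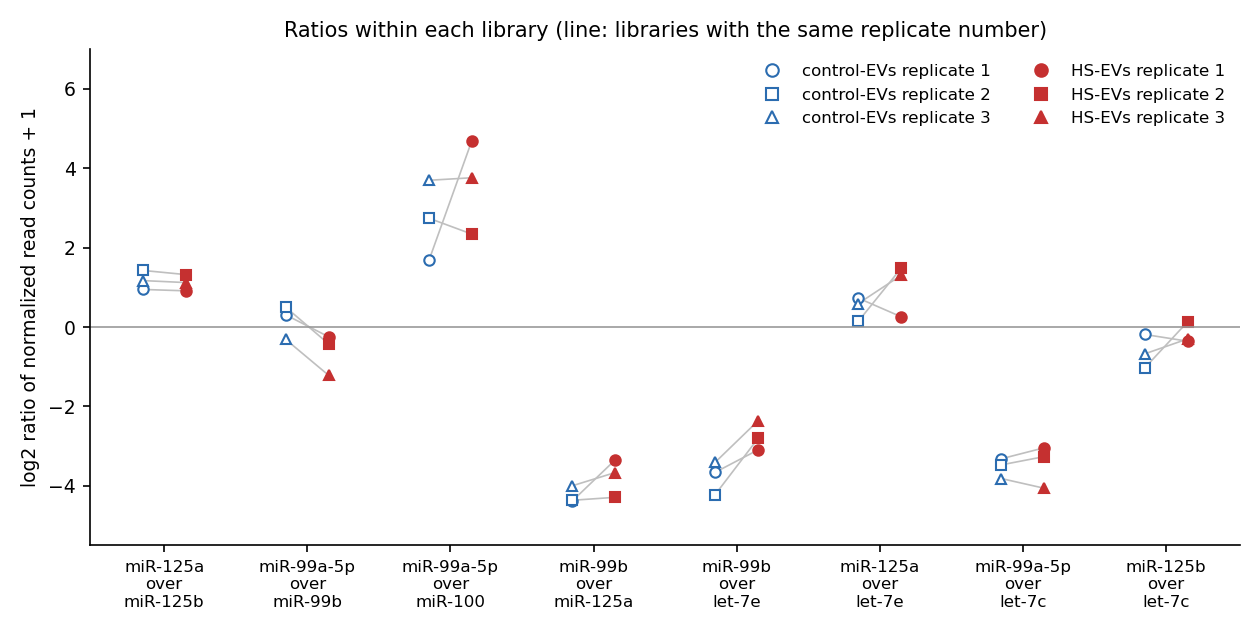
log2 ratios of normalized read counts + 1 within each library for 8 pairs, with open blue symbols for control-EVs, filled red symbols for HS-EVs and grey lines between libraries of the same replicate number. bta-miR-125a over bta-miR-125b stays between 0.91 and 1.43, and bta-miR-99b over bta-let-7e is the pair shown whose groups do not overlap.

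Other miRNAs of the HOX clusters were scarce beside bta-miR-10b. Of the miR-196 and miR-615 entries searched for, 2 were in the files. bta-miR-196a, from the HOXB and HOXC clusters, had 4 to 35 reads per library, with 6.52 to 24.4 normalized counts, and bta-miR-196b, from the HOXA cluster, had at most 1 read. bta-miR-196a had a log2 fold change of -0.50 with a standard error of 0.51 (limma adjusted p = 0.873).

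The likeness of other miRNAs to each member was measured by the SD of their log2 ratio to it over the 6 libraries, among the other miRNAs with 10 or more reads in every library. The smallest SDs to bta-miR-99b were those of bta-miR-150 (0.19) and bta-miR-29b (0.23), where the median miRNA had 0.78 and counting error alone would give 0.38 and 0.31. Since they were chosen for following bta-miR-99b over these 6 libraries, their own difference between the groups adds nothing to it. bta-miR-125a was closest to bta-miR-34a (SD 0.15) and bta-miR-342 (0.17), and bta-miR-125b to bta-miR-210 (0.16) and bta-miR-342 (0.18), against medians of 0.57 and 0.62. bta-miR-10b was closest to bta-miR-507-3p (0.11) and bta-miR-195 (0.15), and bta-miR-99a-5p to bta-miR-2284x (0.10) and bta-miR-339a (0.14), against medians of 0.55 and 0.49. For the rare bta-miR-10a the smallest SDs were 1.06 with bta-miR-19b and 1.11 with bta-miR-3432a, and for bta-miR-100 they were 0.77 with bta-miR-345-3p and 0.78 with bta-miR-193a-5p, where counting error would give 0.80 for both. Apart from bta-miR-195 and bta-miR-342, and from bta-miR-10a with its library at 0 reads, each of these SDs lay below the SD from counting error, so the order among the nearest miRNAs cannot be read from them. These SDs describe 6 libraries and were not tested.

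bta-miR-150 is known from lymphocytes, so the blood cell miRNAs were set beside the result for bta-miR-99b. Of the 7 in the list (bta-miR-451, bta-miR-486, bta-miR-144, bta-miR-150, bta-miR-223, bta-miR-142-5p and bta-miR-142-3p), all were in the files, bta-miR-150 alone did not overlap between the groups (higher in HS-EVs, as in 3.71% of all miRNAs), and 2 had a log2 fold change above 0 (50% of all miRNAs). Their summed level was 834 to 1623 normalized counts in control-EVs and 590 to 1101 in HS-EVs. The red cell miRNA bta-miR-451 had 9 to 37 reads and bta-miR-486 184 to 859. bta-miR-122, the defining miRNA of liver and a frequent one of serum, had 12232 to 25400 normalized counts in control-EVs and 7524 to 13633 in HS-EVs, with a log2 fold change of -0.91 (limma standard error 0.49, adjusted p = 0.873). The 4 muscle miRNAs summed to 522 to 971 in control-EVs and 227 to 1582 in HS-EVs, the 2 endothelial ones to 129 to 764 and 212 to 859, and the 5 epithelial ones to 11.9 to 14.7 and 8.15 to 17.6. In the epithelial list 1 of the 5, bta-miR-429 with at most 3 reads in a library, had an unadjusted limma p of 0.05 or less (4.88% of all miRNAs), and its groups did not overlap, lower in HS-EVs (2.73% of all miRNAs). The part of these sources in the levels of bta-miR-99b or the other members was not tested. bta-miR-361, the reference miRNA of the study's droplet PCR, had a log2 fold change of -0.44 with a standard error of 0.45 (limma adjusted p = 0.873).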

How the data were processed

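The deposited values are a signal that is never negative: per the labels and the methods, the authors trimmed adapters with cutadapt 1.11, collapsed reads by unique molecular identifier, mapped them with Bowtie2 2.2.2 to UMD3.1 (Ensembl release 72) and miRBase (release 22, or 20 in a supplementary table), and normalized the counts by the trimmed mean of M-values in edgeR. In each of the 6 libraries 100% of values came out as whole steps of the lowest nonzero value (tolerance 0.001 of a read). That step was taken as 1 read. If it stood for more, reads are understated by that factor, and if for less, they are overstated and counting error is understated. The study reports fewer reads on annotated miRNAs in each library than were recovered. Counting errors, intervals and floors rest on the recovered reads. Intervals and floors cover counting error only.

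All 512 miRNAs were fitted without a filter by limma 3.58.1 (R 4.3.3, default settings) on log2(normalized count + 1), with Benjamini-Hochberg adjustment. Fold changes are on this scale, and those of rare miRNAs depend on the pseudocount. The recovered reads were also tested with edgeR 4.0.16 (quasi-likelihood) and DESeq2 1.42.0. Single values were compared by exact permutation tests over libraries. In all 15 pairs of libraries counts differed beyond sampling noise (chi-square per degree of freedom 18.8 to 2008). The members, the marker lists and the rule for named miRNAs (all members, let-7 partners, HOX miRNAs, the 2 nearest miRNAs per member, bta-miR-361 and bta-miR-1246) were chosen with earlier results of these data known. Reads scaled by totals were brought to the mean deposited total. Alternatives were other tests, pseudocounts (0.5 and 5), a filter on low values, scalings, a replicate block and leaving out each library.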

Additional observations from a re-analysis of the deposited data

How the results depend on the processing

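The count of members past the threshold was 0 under each alternative fit, with every library left out in turn included. Over all 512 miRNAs it was 0 in limma, 1 with pseudocount 0.5, 2 with limma's trend, 3 with edgeR and 0 to 4 with each library left out. The count of members at an unadjusted p of 0.05 or less was 0 in limma with pseudocount 0.5 and on reads scaled by all reads. It was 1, bta-miR-99b, with edgeR, with DESeq2, with limma's trend, with pseudocount 5, with the filter on low values, and on reads scaled by those other than bta-miR-1246 or by DESeq2 size factors, and it was 0 to 1 with each library left out. The share of all miRNAs at that p was counted only for the main limma fit (4.88%), edgeR (5.08%) and DESeq2 (1.95%). The other counts thus cannot be set against a share, and the filter left 204 miRNAs. Scaling by all reads turned the log2 fold changes of bta-miR-99a-5p to -1.36, bta-miR-99b to -0.56, bta-miR-125a to -1.06 and bta-miR-125b to -0.997, and left 0 members whose groups did not overlap. Relative to the median of all miRNAs on that scale, -1.01, these were -0.35, 0.45, -0.05 and 0.01. The summed share of the members, -0.0692 percentage points of all reads (HS-EVs minus control-EVs), was 0.949 with bta-miR-1246 left out of the total, and -0.253 to 0.155 with each library left out. With each library left out, the log2 fold change was -0.43 to 0.068 for bta-miR-10b, -2.23 to -0.59 for bta-miR-10a and -1.32 to -0.13 for bta-miR-100, and the group difference of the ratio was -0.18 to 0.059 for bta-miR-125a over bta-miR-125b and -0.13 to 0.38 for bta-miR-99a-5p over bta-let-7c. The cause of these shifts was not tested.

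The replicate numbers were checked as a pairing: deviations of same-numbered libraries correlated by 0.141, 0.141 and 0.0787, and each of the 6 libraries correlated best with its own number, a hint from the data and not from the design. With the replicate number as a block, limma called 0 miRNAs, as without it, and 1 member, bta-miR-10a, had an unadjusted p of 0.05 or less (0.0300, adjusted 0.739). For the block fit, the share of all miRNAs at that unadjusted p was not counted, so this member cannot be set against it. Sign flips within 3 same-numbered pairs cannot give a p below 0.25. Across all alternatives and values, 278 of 302 were scored as unchanged, for ratios between groups and for shares by direction alone. Many could not change, since limma's trend, the filter and the block leave the fold changes as they were. The tally is thus no measure of robustness. HS-EVs replicate 1, with 34141 reads outside bta-miR-1246,, held 0 reads of bta-miR-10a and 1 of bta-miR-100.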
